A study of Physcomitrium patens with 21 samples.

Results

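Gametophores of the moss Physcomitrium patens treated for 30 min with the auxin indole-3-acetic acid (IAA) were compared with gametophores that received the solvent alone (mock). The comparison addressed which genes respond to auxin. It holds 6 of the 21 libraries in the series, 3 of IAA and 3 of mock, and was made across all 32926 gene models in the count tables. The other 15 libraries are stems collected 0, 2, 6, 12 or 24 h after decapitation, 3 libraries per time, and they enter here only where the change by IAA is set beside the change after decapitation. All plants were wild type of the Gransden strain, grown at 23 °C with 16 h of light and 8 h of darkness per day. IAA was given at 10 µM. Both groups are labelled as stem tissue of gametophores, and 4 µg of RNA per sample went into polyA-selected, stranded, paired-end libraries. The medium, temperature and light in the labels are the same for both experiments. For the decapitated stems the labels add that 5 to 10 gametophores of 4-week-old colonies were pooled per replicate, and for IAA and mock they give neither pooling nor colony age nor the hour of collection. The design text calls the 3 libraries of a group biological replicates and names mock as the control of IAA and 0 h as the control of the decapitated stems.

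Gametophores are the leafy shoots of a moss, which grow from an apical cell. Auxin in land plants binds receptors of the TIR1/AFB family together with Aux/IAA repressors, which are then degraded, so that auxin response factors can act on their target genes. Some of the known targets respond within minutes and encode the repressors themselves. In moss gametophores auxin is known for its part in rhizoid formation, in stem growth and in the suppression of branches by the shoot tip. The identifiers in the count tables (Pp3c or Pp3s followed by numbers) are not paired with gene names there, and 0 of the 32926 were found among the 27567 genes of the RefSeq table of assembly ASM5946719v1. The known auxin genes were therefore not looked up, the labelled tissue was not checked against markers, and genes are given by identifier without a role.

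The IAA libraries held 21054498, 22823907 and 21299988 counted read pairs and the mock libraries 24664491, 24537019 and 24894463. Every mock library was thus deeper than every IAA library (exact permutation test, two-sided p = 0.1, the smallest that 3 against 3 libraries allows). The part of this gap in the results was not tested. The share of pairs in the 10 gene models with the most pairs was 4.69% to 4.99% in IAA and 4.50% to 5.10% in mock, so the groups overlapped. Levels are given as CPM, read pairs per 1e6 pairs of the library size after TMM scaling. Across genes, the correlation of log2 CPM was 0.9905 to 0.9927 among IAA libraries, 0.9862 to 0.9907 among mock libraries and 0.9575 to 0.9691 between the groups. The chi-square per degree of freedom between replicates was 4.64 to 9.28 in IAA and 8.42 to 16.9 in mock, so no library was taken for a copy of another.

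After 30 min of IAA a large part of the transcriptome had moved, mostly by small steps, and the large steps were mainly increases. Of 19989 gene models with enough counts to be tested, 7933 passed an adjusted p of 0.05 (39.7%; edgeR quasi-likelihood test, Benjamini-Hochberg adjustment). Of these, 4262 were higher in IAA (21.3%) and 3671 were lower (18.4%). The median log2 change was 0.58 among the genes called higher, a 1.49-fold rise, with the middle 50% between 0.37 and 0.94. Among the genes called lower it was -0.41, a 1.33-fold fall, with the middle 50% between -0.61 and -0.29. The median of all tested genes was -0.02.

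The 2 directions came apart as the fold grew. At least 2-fold, 955 genes were higher (4.78% of those tested) and 277 lower (1.39%), and these are called the raised and the lowered genes below. At least 4-fold, 223 were higher and 20 lower. Rises of at least 8-fold were made by 91 genes, of at least 16-fold by 34 and of at least 32-fold by 10. Some of the largest rises started from almost no mock reads, which leaves their size uncertain. An example named after its values were seen is Pp3c17_13980V3.1, with a log2 change of 7.09 ± 0.738 (SE). It held 0.0398, 0 and 0 CPM in the mock libraries. Others, such as Pp3c9_5910V3.1 with a mock mean of 2.03 CPM, started higher. Falls of at least 8-fold were made by 3 genes, named after their values were seen: Pp3c15_14300V3.1, Pp3c25_7150V3.1 and Pp3c7_22489V3.1. When each library was left out in turn, the log2 change of Pp3c15_14300V3.1 ran from -3.31 to -2.89, so its fall was not 8-fold in every fit. Pp3c7_22489V3.1 had the largest fall, 11.3-fold, from a mean of 2.22 CPM in mock to 0.191 CPM in IAA, and its IAA libraries held 3, 4 and 5 pairs. When the test was made against a change of 2-fold and not against no change (glmTreat in edgeR), 406 genes were higher and 49 lower. The number at least 4-fold lower was 32 without IAA replicate 2, against 20 with it.

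**Figure D1:**
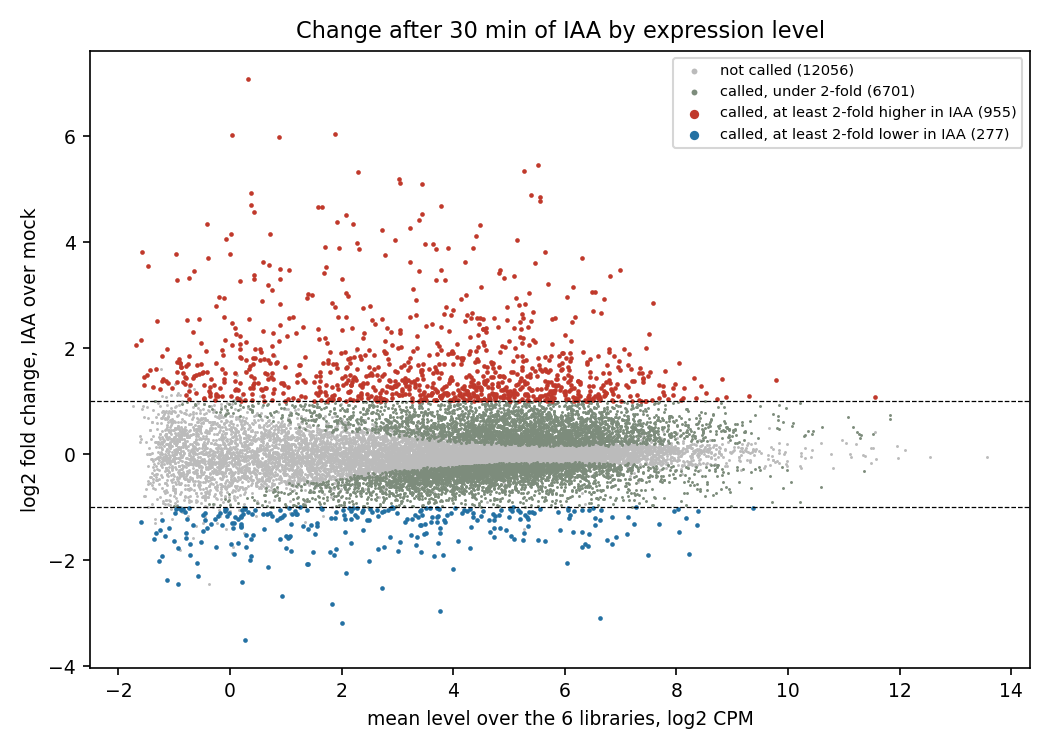
Log2 fold change of IAA over mock (vertical axis) against the mean level over the 6 libraries in log2 CPM (horizontal axis), 1 point per tested gene model; dashed lines mark 2-fold. The 955 raised genes reach further from 0 than the 277 lowered genes, and both occur over most of the range of levels.

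The rule for named genes took the largest changes among called genes averaging 5 CPM or more whose groups did not overlap. By it, 2 raised and 2 lowered genes are described in full. Both raised genes reached 5 CPM through IAA, and Pp3c10_4690V3.1 through mock, so their direction describes the genes chosen. Pp3c9_5910V3.1, a model of 2097 bases, stood at 88.6, 98.0 and 83.5 CPM in the IAA libraries and at 2.19, 1.44 and 2.46 CPM in mock. It was low in all 3 mock libraries, and its lowest IAA library was far above its highest mock library. The log2 change was 5.47 ± 0.143 (SE, n = 3 per group; edgeR, adjusted p = 8.03e-08). Pp3c7_13140V3.1, of 2487 bases, stood at 66.0, 101 and 59.5 CPM in IAA and at 1.63, 1.13 and 2.76 CPM in mock. IAA replicate 2 was the highest of its group, and the groups did not overlap. The log2 change was 5.35 ± 0.295 (edgeR, adjusted p = 2.89e-06).

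Pp3c15_14300V3.1, of 2906 bases, fell from 118, 206 and 207 CPM in mock to 14.5, 21.9 and 26.0 CPM in IAA. Mock replicate 1 and IAA replicate 1 were the lowest of their groups, and the groups did not overlap. The log2 change was -3.09 ± 0.257 (SE; edgeR, adjusted p = 2.90e-05). Pp3c10_4690V3.1, of 3446 bases, fell from 25.4, 19.98 and 26.6 CPM in mock to 2.29, 3.62 and 3.28 CPM in IAA. Its spread within each group was small beside the gap between them, and the log2 change was -2.96 ± 0.173 (edgeR, adjusted p = 4.02e-06). In a bulk sample a fall of this kind can come from less RNA per cell or from fewer cells that hold the transcript, and these cannot be told apart; the same holds for the rises.

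**Figure D2:**
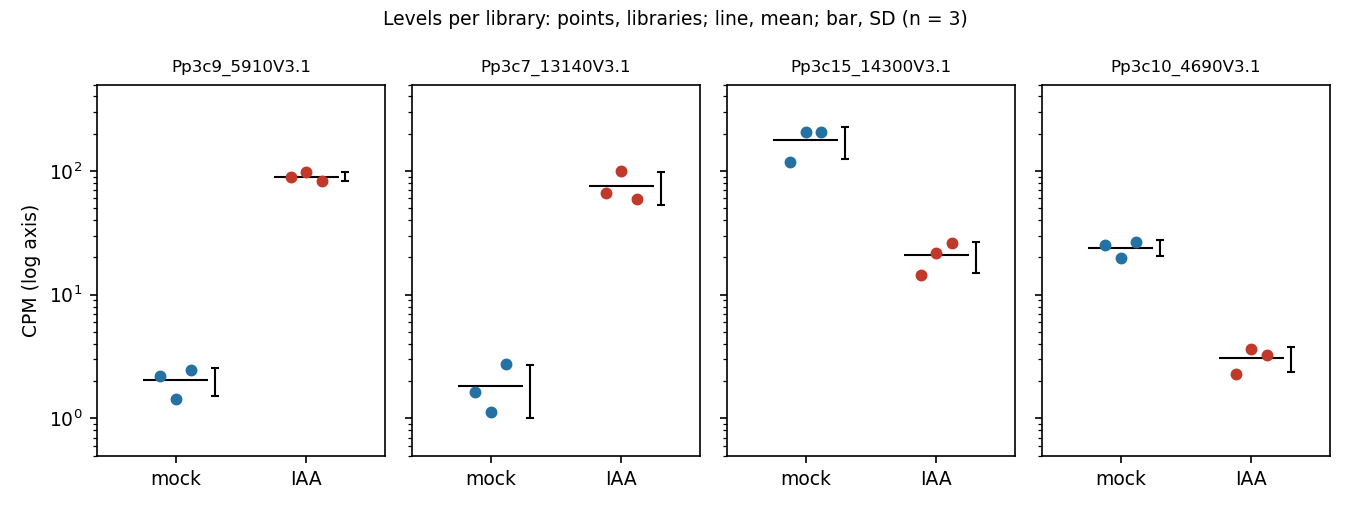
CPM of the 4 named genes in each library on a log axis, mock in blue and IAA in red; points are libraries, lines are means and bars are the SD (n = 3). The genes were chosen for large changes without overlap, so the gap between the 3 IAA and the 3 mock points in each panel follows from the choice. For Pp3c9_5910V3.1 it lies between 83.5 CPM or more and 2.46 CPM or less.

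The share of genes called rose with read depth per gene for rises, while large changes were most frequent among genes with few reads. Among the 1294 tested genes with a mean of up to 1 CPM, 8.19% were called higher and 4.17% lower. In the classes of 1 to 5, 5 to 20 and 20 to 100 CPM, 13.3%, 16.7% and 25.9% were called higher, and above 100 CPM, with 2057 genes, 34.2% were. For falls the share was greatest at 5 to 20 CPM, where 23.5% of 5367 genes were called lower, and it was 14.3% above 100 CPM. Only in the class of 5 to 20 CPM were more genes called lower than higher. Rises outnumbered falls in each of the 5 classes once a change of at least 2-fold was asked for. At up to 1 CPM, 6.88% of genes were raised and 3.48% lowered. Above 100 CPM, 3.99% were raised and 0.924% lowered. Since genes with few reads need a larger change to be called, the shares of different classes are not a comparison of how strongly genes responded.

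**Figure D3:**
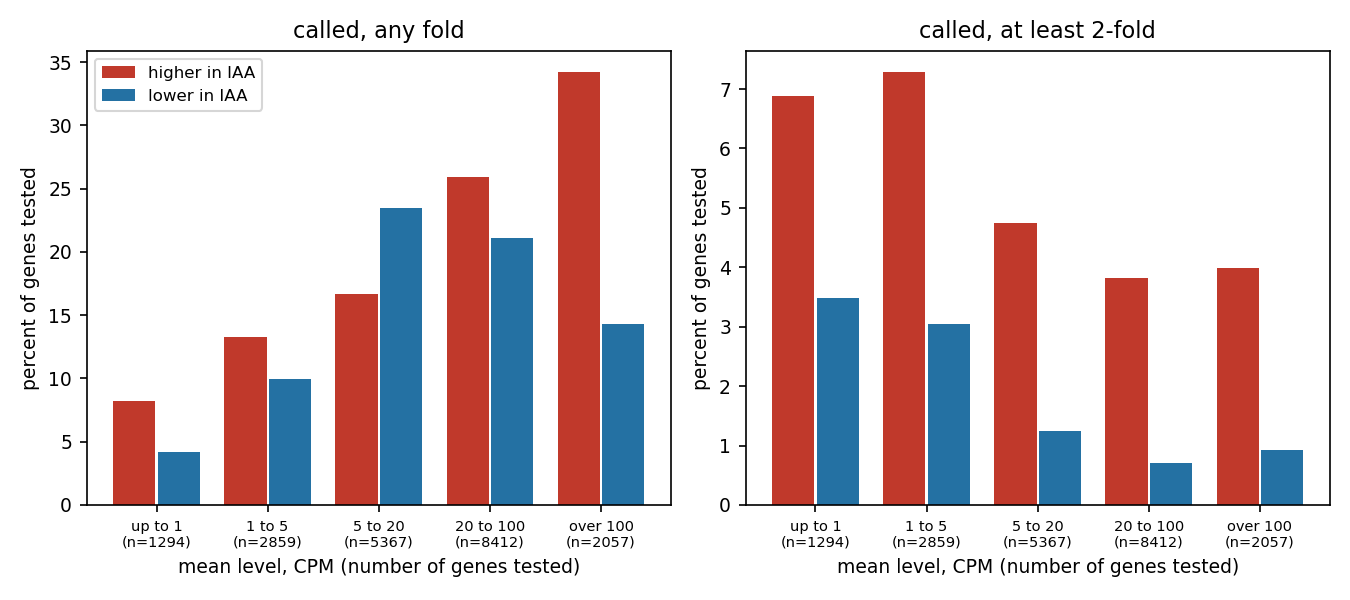
Percent of tested genes called higher (red) or lower (blue) in IAA, by mean level in CPM, for any fold (left) and for at least 2-fold (right). The share called higher goes from 8.19% in the lowest class to 34.2% in the highest, and in the right panel red exceeds blue in every class.

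The median of the raised genes went from 6.39 CPM with mock to 20.9 CPM with IAA, and that of the lowered genes from 7.91 CPM to 3.26 CPM. In mock both sets stood below the median of all tested genes, 21.3 CPM. In IAA the raised genes stood near the median of all tested genes, 21.5 CPM. Both sets were chosen on these libraries. The median model length was 2294 bases for raised, 2131 for lowered and 2257 for all tested genes. By length, the share raised ran from 3.04% of the 263 models of up to 500 bases to 5.43% of the 6173 models of 2000 to 3000 bases, and the share lowered from 1.17% above 3000 bases to 3.42% up to 500 bases.

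A small group of raised genes went from under 1 CPM in mock to 5 CPM or more in IAA, by group means. It held 28 genes with mock means from 0.104 to 0.976 CPM, so not all of them started from almost no reads. The largest log2 change of the 28 was 6.05 for Pp3c6_28290V3.1, which went from 0.104 CPM to 7.22 CPM. In the reverse direction 2 genes went from at least 5 CPM in mock to under 1 CPM in IAA, Pp3c25_7150V3.1 and Pp3c26_5390V3.1. Pp3c26_5390V3.1 stood at 4.58, 7.65 and 6.49 CPM in mock and at 0.598, 0.940 and 1.08 CPM in IAA, with no overlap. Pp3c25_7150V3.1 stood at 2.79, 15.1 and 3.92 CPM in mock, so its mean there was set largely by replicate 2. Its fall was 9.09-fold with all libraries and 4.21-fold without mock replicate 2, where it still passed (edgeR, adjusted p = 0.000573). These 3 genes were named after their values were seen.

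At the other end, 135 of the 955 raised genes averaged 100 CPM or more in IAA, and 33 of the 277 lowered genes did so in mock. Each set was counted in the group where it was chosen to be high. Of all 19989 tested genes, 2057 averaged above 100 CPM over the 6 libraries, so such levels are not particular to these sets. The raised gene with the highest CPM was Pp3c9_3440V3.1, of 1448 bases, at 4148, 3976 and 4129 CPM in IAA and 2017, 2020 and 1763 CPM in mock. Its libraries were tightly grouped, and its log2 change of 1.08 ± 0.094 (SE, n = 3 per group) passed the test (edgeR, adjusted p = 3.78e-05). CPM is not scaled to length, so it ranks read depth per gene and not transcript number.

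Gene models without a pair in 1 of the groups were counted whether or not the other group held a pair. Both totals thus include the models without a pair in either group, and nothing is read from how close they are. No pair was counted in any mock library for 8087 models, and 34 of these had a pair in all 3 IAA libraries. No pair was counted in any IAA library for 8163 models, and 54 of these had a pair in all 3 mock libraries, the deeper group. Pp3c4_27971V3.1 had the most pairs among models absent from mock, with 5, 7 and 5 pairs in IAA. A count of 0 in a single library allows up to 3 pairs there, counting error only. For a count of 0 summed over a group, the 3 pairs apply to its libraries together. Such models lie at the limit of what these depths detect.

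The raised and lowered genes were chosen by the test on these 6 libraries, and how they separate the groups is therefore a description. All 3 IAA libraries lay above all 3 mock libraries in 953 of the 955 raised genes, and all 3 lay below in 271 of the 277 lowered genes. Among all tested genes, IAA lay above in 5252, below in 5306, and the groups overlapped in 9431. Changes of single IAA libraries from the mock mean were taken on the log2(CPM + 1) scale. The added 1 makes the changes and spreads of genes with few reads smaller. The median change over the raised genes was 1.20, 1.28 and 1.14 for replicates 1, 2 and 3. The corresponding medians over the lowered genes were -1.06, -0.96 and -0.96. These medians were close to each other, but the genes were chosen on the same libraries, so nothing is read from that about single libraries. The median SD of log2(CPM + 1) within a group was 0.0897 in IAA and 0.109 in mock over all tested genes. Over the raised genes it was 0.134 and 0.157.

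Genes raised or lowered at least 2-fold kept passing the test without single libraries more often than genes called at any fold. All were chosen on these same libraries, and each fit reuses the libraries not left out. The sets at any fold also include the 2-fold sets. The shares and signs below therefore describe how far calls depend on single libraries, and they are no independent support for the calls. Called means here that a gene passed the test, and its change did not have to stay at 2-fold. The shares therefore do not tell how many genes stayed at 2-fold in every fit. When each of the 6 libraries was left out in turn, 893 of the 955 raised genes (93.5%) and 224 of the 277 lowered genes (80.9%) were called in every one of the 6 fits. Of the genes called higher at any fold, 3161 of 4262 (74.2%) were called in every fit, and of those called lower, 2111 of 3671 (57.5%). All of these genes kept the sign of their change in each of the 6 fits that tested them.

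The raised genes took up a larger part of the counted pairs after IAA. They held 5.08%, 5.36% and 4.96% in the IAA libraries and 2.002%, 2.05% and 2.12% in the mock libraries. Without Pp3c9_3440V3.1 the means were 4.74% in IAA and 1.86% in mock. The lowered genes held 0.416%, 0.469% and 0.457% in IAA and 1.15%, 1.23% and 1.18% in mock. As these genes were selected on the same libraries, the gap is no further evidence of a change.

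In the decapitated stems, which took no part in the selection, the same sets moved over a similar range. The share of the raised genes was 5.36%, 4.66% and 4.68% at 0 h, close to that in IAA, and it was 3.77% to 4.13% at 2 h and 2.73% to 3.23% at 6 h. It was 2.53% to 2.65% at 12 h, the lowest of the 5 times and still above mock, and 3.83% to 4.48% at 24 h. The share of the lowered genes went the other way, from 0.643% to 0.683% at 0 h to 1.496% to 1.585% at 6 h, and it was 0.629% to 0.639% at 24 h. Stems at 0 h therefore lay nearer to IAA than to mock in both shares. The experiments were separate and lack a shared control, so levels are set side by side across them without a test.

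**Figure D4:**
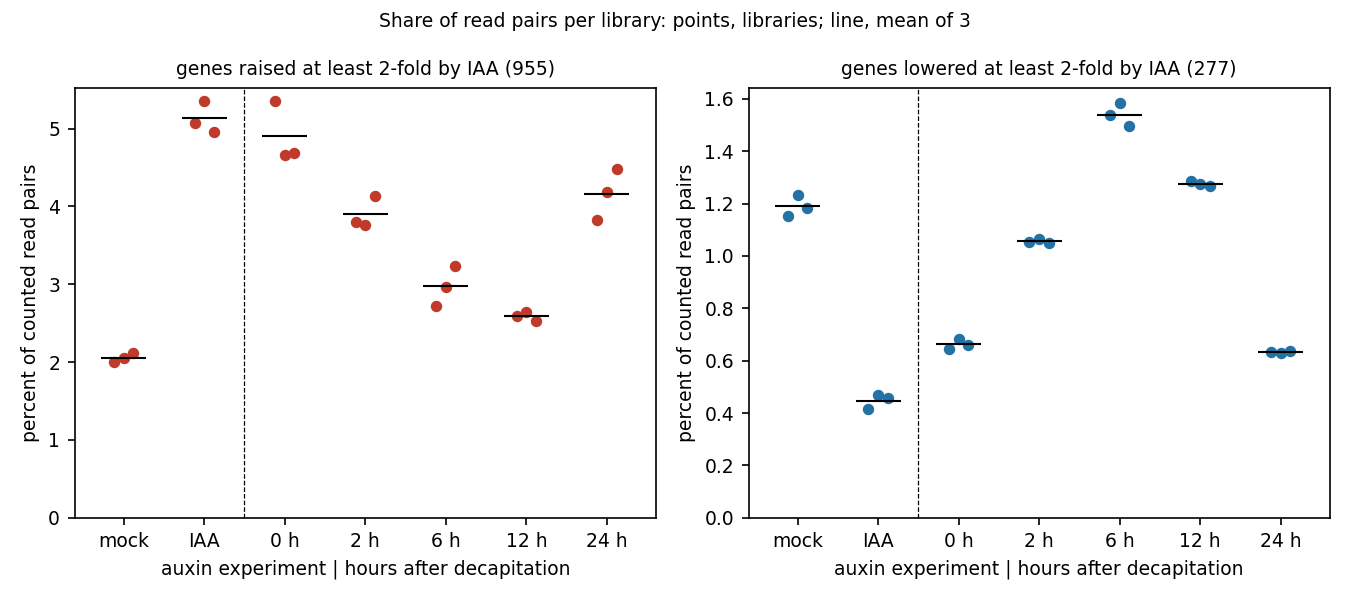
Percent of counted read pairs held by the 955 raised genes (left) and the 277 lowered genes (right) in each of the 21 libraries; points are libraries, lines are means of 3, and the dashed line divides the auxin experiment from the decapitated stems. The raised share at 0 h (4.66% to 5.36%) lies at the height of IAA (4.96% to 5.36%), and that at 12 h (2.53% to 2.65%) lies nearest to mock.

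Gene by gene the picture was less uniform. On the log2(CPM + 1) scale, the mean at 0 h was nearer to IAA than to mock for 600 of the 955 raised genes (62.8%) and for 174 of the 277 lowered genes (62.8%), against 51.7% of all tested genes. At 12 h, 24% of the raised and 40.1% of the lowered genes were nearer to IAA, against 39.7% of all tested genes. At 24 h the shares were 55.8% and 61.7%, against 51.3%.

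The named genes differed in how far they followed this. With all 21 libraries on 1 scale, Pp3c9_5910V3.1 averaged 93.2 CPM ± 7.80 under IAA against 2.12 CPM ± 0.539 under mock (SD, n = 3 per group, as for the other genes here). In decapitated stems its level was 107 CPM ± 36.0 directly after the cut, 51.7 CPM ± 10.7 after 2 h, 24.1 CPM ± 14.5 after 6 h, 3.72 CPM ± 1.65 after 12 h, and 47.6 CPM ± 13.7 after 24 h. Its values at 0 h and 12 h thus lay near those of IAA and mock. Pp3c7_13140V3.1 stood higher in the decapitated stems than in IAA at 0 h, with 231 CPM ± 62.5 against 78.1 CPM ± 23.3, and at 14.6 CPM ± 3.90 at 12 h it remained above its mock level of 1.92 CPM ± 0.865. Pp3c15_14300V3.1 was at 42.8 CPM ± 3.30 at 0 h, between IAA with 21.6 CPM ± 6.14 and mock with 185 CPM ± 53.4. It reached 166 CPM ± 17.4 at 2 h and was back at 41.3 CPM ± 8.97 at 6 h. Pp3c10_4690V3.1 was at 3.42 CPM ± 0.382 at 0 h and 2.27 CPM ± 0.557 at 24 h, near its IAA level of 3.18 CPM ± 0.733, and it reached 110 CPM ± 1.95 at 6 h, well above its mock level of 25.05 CPM ± 3.597.

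To ask where the response to auxin differed from the response to decapitation, each change was taken against the control of its own experiment and the difference of the 2 changes was tested in a fit of 15 libraries. Of 20426 genes tested, the change by IAA was above that at 2 h in 5040 genes (24.7%) and below it in 4573 (22.4%). Against the change at 12 h it was above in 5594 (27.4%) and below in 5880 (28.8%). Which side was larger at 12 h was not stable, with 5743 above and 5649 below under RLE size factors in place of TMM, and with more above than below in 13 of the 15 fits that left out 1 library. The exceptions were the fits without 0 h replicate 2 and without 2 h replicate 2. Among differences of at least 2-fold, positive ones outnumbered negative ones at both times. At 2 h these were 1619 (7.93%) and 783 (3.83%), and at 12 h 2279 (11.2%) and 1207 (5.91%). Both tests share the IAA, mock and 0 h libraries and are not independent of each other.

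The genes with the widest differences were taken from those averaging 5 CPM or more over the 15 libraries, which some reach through the group where they are high, so that the direction of their changes is a description of the genes chosen. For Pp3c9_5910V3.1 the log2 change was 5.46 ± 0.302 by IAA in the 15-library fit and -1.05 ± 0.212 at 2 h, a difference of 6.51 ± 0.374 (SE; edgeR, adjusted p = 1.97e-09). For Pp3c10_6760V3.1 it was 5.98 by IAA, -1.62 at 2 h and -6.18 at 12 h, with differences of 7.60 ± 1.08 and 12.16 ± 1.16 (edgeR, adjusted p = 2.75e-05 and 2.54e-07). Pp3c10_6760V3.1 had 41, 126 and 64 pairs in the IAA libraries and 0, 1 and 3 in mock, so that its fitted change by IAA rests on 4 mock pairs in all. Its differences were 8.78 and 13.37 without mock replicate 3 and 6.83 and 11.42 without 0 h replicate 1, and that at 12 h was 12.92 without 12 h replicate 1. Its mean over the 15 libraries, 5.47 CPM, passed the minimum through the 0 h libraries, which held 31.9, 11.96 and 8.89 CPM. Pp3c23_14420V3.1 rose by 3.87 with IAA, from 2.57, 0.572 and 1.99 CPM in mock to 15.6, 41.5 and 17.7 CPM. It went from 219, 90.5 and 80.6 CPM at 0 h to 1.26, 0.816 and 1.22 CPM at 12 h, and the difference was 10.74 ± 0.914 (edgeR, adjusted p = 6.64e-08). In this gene IAA replicate 2 and 0 h replicate 1 were far above the rest of their groups, and without 0 h replicate 1 the difference was 10.15.

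Of the 4 genes with the widest negative differences, 3 passed the minimum level through the libraries at 2 h or 12 h, where they were high. The other, Pp3c10_4690V3.1, passed it through mock, 2 h and 12 h, at 20.9 to 27.7, 27.8 to 36.1 and 36.0 to 38.9 CPM. It held 2.38 to 3.76 CPM in IAA and 3.18 to 3.85 CPM at 0 h, so its direction is a description as well. Its log2 change was -2.96 with IAA and 3.21 at 2 h, a difference of -6.18 ± 0.212 SE (edgeR, adjusted p = 2.24e-11). Pp3c12_21960V3.1 rose by 4.88 at 2 h, from 2.02, 1.59 and 1.35 CPM to 47.4, 45.6 and 53.2 CPM, and its difference was -5.80 ± 0.391 (edgeR, adjusted p = 1.03e-08). Its change by IAA was -0.92 ± 0.399 in the 6-library fit, where it did not pass (edgeR, adjusted p = 0.0989), and -0.93 ± 0.322 in the 15-library fit, where it did (adjusted p = 0.0269). Pp3c11_5230V3.1 rose by 6.75 at 12 h, from 2.79, 3.23 and 2.69 CPM to 317, 333 and 287 CPM, against a change of -1.01 ± 0.163 by IAA. Its difference was -7.75 ± 0.197 (edgeR, adjusted p = 2.45e-13). Pp3c10_16800V3.1 rose by 6.08 at 12 h against a change of -1.14 ± 0.255 by IAA, a difference of -7.21 ± 0.314 (edgeR, adjusted p = 3.71e-11). The changes by IAA of both these genes passed the test and were small beside their rise at 12 h.

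**Figure D5:**
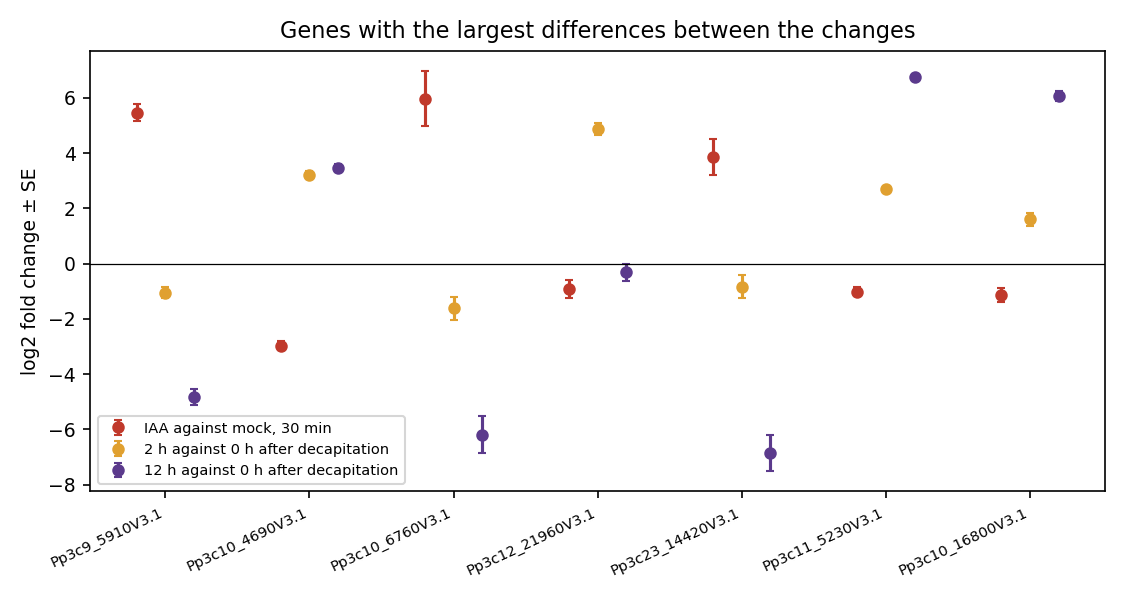
Log2 fold change ± SE of the 7 genes named for the difference of changes, for IAA against mock (red), 2 h against 0 h (yellow) and 12 h against 0 h (purple), all from the 15-library fit. Pp3c10_6760V3.1 goes from 5.98 by IAA to -6.18 at 12 h, while Pp3c11_5230V3.1 goes from -1.01 by IAA to 6.75 at 12 h.

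Among the raised genes, 950 were also tested for the difference. The IAA change exceeded that at 2 h in 873 and was below it in 1, and for 12 h the numbers were 890 and 6. Since the raised genes were chosen for a high change by IAA, nothing is read from these counts or from those of the lowered genes, which were chosen for a low one. The exceptions had risen in both experiments, which follows from how they are defined. A raised gene whose change after decapitation is above its rise by IAA must have risen there too. Pp3c20_16830V3.1, the exception at 2 h and named after its values were seen, rose by 1.31 with IAA and by 1.92 at 2 h, a difference of -0.61 ± 0.185 (SE; edgeR, adjusted p = 0.0125). The 6 exceptions at 12 h rose by 1.03 to 3.00 with IAA and by 1.56 to 4.39 at 12 h. Of the 277 lowered genes, the change by IAA was below that at 2 h in 253 and below that at 12 h in 250, against 22.4% and 28.8% of all genes tested.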

How the data were processed

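RNA was measured by polyA-selected, stranded, paired-end sequencing, per the labels' protocols. Reads were aligned with Bowtie2, per the submitters' processing notes; its version, the genome build and the annotation are not given in the sources used here. Per the file headers, the deposited counts are raw read pairs per gene model made by the authors with sam2pkm: single mates were treated as unmapped, reads with an equally good second hit were removed, and no insert size limit was set. Genes with near-identical copies are therefore undercounted and uncertain. Removed multi-hit reads were 13.1% to 13.5% of mapped reads in the 6 libraries, and the 2 groups overlapped. The deposited single-read counts served as an alternative.

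From these counts, gene models were filtered with filterByExpr, scaled by TMM and tested with edgeR 4.0.16 in R 4.3.3 (glmQLFit and glmQLFTest, group as the sole term, Benjamini-Hochberg adjustment over all tested models, threshold 0.05). Depth was 21054498 to 24894463 pairs per library of the auxin experiment. IAA was compared with mock in a fit of those 6 libraries, with a biological coefficient of variation of 0.0927. The differences between the change by IAA and those at 2 h and 12 h were contrasts in a fit of 15 libraries (0.0787). The SE was taken as |log2 change|/√F. CPM uses TMM-scaled library sizes of the fit named. Library-level values were compared by a two-sided exact permutation test. The procedure was also run on simulated counts with 200 changed genes. The outcome of that run is not reported here, and it is not used as support for the calls.

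Named genes are, per comparison and direction, the 2 with the largest log2 value among called genes averaging 5 CPM or more and, for IAA against mock, without overlap between groups; the gene with the most pairs among those with none in mock was added. The comparison, rules and lists were chosen with earlier results of these data known. Gene lists by pathway and cell type markers were not used, since no identifier was paired with a name, and no sequence is shown. Alternatives were RLE size factors, other filters, DESeq2 1.42.0, a block for replicate number, a fit of all 21 libraries, single reads, glmTreat and leaving out each library. The shares without the raised gene of highest CPM, and the leave-one-out values of library-level measures and of genes singled out for their values, and the counts of differences of at least 2-fold, were added after seeing the data. The design text calls the replicates biological without saying that they came from separate cultures, so p-values measure the spread between these samples.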

Additional observations from a re-analysis of the deposited data

How the results depend on the processing

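Of the counts of called genes, those at any fold and at least 2-fold, and those of the differences of changes, stayed within 1.5 times their value under every alternative run except glmTreat, which tests against a change of 2-fold and gave 406 higher and 49 lower. The number at least 4-fold lower, 20, became 33 with no filter on low counts, and 20 to 32 when each library was left out in turn; the cause was not tested. Leaving out each library gave 3518 to 4317 genes higher and 2555 to 3578 lower at any fold, 900 to 997 and 227 to 293 at 2-fold, and 211 to 255 higher at 4-fold. For the differences it gave 4686 to 5032 positive and 4166 to 4721 negative at 2 h, and 5286 to 5804 and 5229 to 5733 at 12 h. DESeq2 called 4124 higher and 3023 lower, and the fit of all 21 libraries 4935 and 4810. Every gene chosen by the naming rule kept its direction and its side of the threshold, in the comparison that named it, in each alternative that gave a value. The IAA and mock libraries share replicate numbers, but the deviations from the group means correlated at 0.208, 0.0706 and -0.0746 for equal numbers and at -0.262 to 0.241 for unequal ones, so the numbers were not taken to pair the libraries. With the replicate block, 4579 genes were higher and 3952 lower, 973 and 287 at 2-fold, and the differences were 5270 and 4867 at 2 h and 5790 and 6150 at 12 h. Depth limits the models with few pairs: those with no pair in a group may hold up to 3 over its libraries together, counting error only.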

Other observations

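Some raised genes lay beside each other in identifier order. With the identifiers of each prefix put in numerical order, 172 of the 955 raised genes (18.0%) had a raised gene as the next tested model on either side, against 1678 of the 19034 other tested genes (8.82%). For lowered genes the numbers were 12 of 277 (4.33%) and 536 of 19712 (2.72%). No genome of this annotation was used here, so that identifier order was not checked against position, and no test was made. The raised genes formed 81 runs of at least 2, and 9 of these held at least 3. The longest, of 4, held Pp3c7_13080V3.1, Pp3c7_13100V3.1, Pp3c7_13140V3.1 and Pp3c7_13340V3.1, chosen after their values were seen, with log2 changes of 1.06, 1.61, 5.35 and 2.20. The first of these was under 2-fold without IAA replicate 1 or 2 or mock replicate 1, at 0.99, 0.86 and 0.87. Their mean levels in mock were 6.21, 0.442, 1.84 and 7.02 CPM, and in IAA 12.9, 1.36, 75.5 and 32.4 CPM. The members of this run differed widely in the size of their change.

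By identifier prefix, the share of tested genes raised at least 2-fold ran from 2.15% of 418 (Pp3c26) to 6.93% of 606 (Pp3c23), the scaffolds aside. The share lowered ran from 0.511% of 587 (Pp3c19) to 2.48% of 606 (Pp3c23). The prefixes differ in number of genes, and no test of these shares was made.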
